A study of Caenorhabditis elegans with 2 samples.

Results

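Histones package DNA into nucleosomes, in which the core histones H2A, H2B, H3 and H4 form the particle and the linker histone H1 binds the DNA between particles. Animals carry many near-identical copies of the core histone genes, often as head-to-head pairs, whose messages end in a conserved stem-loop instead of a poly(A) tail and are made mainly during DNA replication. Replacement variants such as H3.3 are also made outside replication. UNC-62 is a homeodomain protein of the Meis class and a regulator of development in Caenorhabditis elegans.

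The histone genes were the protein-coding gene records of Ensembl WBcel235 whose symbol starts with his-. There were 72 of 19973 protein-coding records, and records within 10 kb of each other formed 19 loci. UNC-62 binding had been profiled by ChIP-seq in 2 biological replicates of L1 larvae, the first larval stage, as whole animals of both sexes pooled. The strain was OP600, in which the unc119(ed3) background carries the insertion wgIs600 with a tagged unc-62 (TY1, EGFP and FLAG) and unc119 on the same construct. Both replicates therefore share 1 insertion strain, and without another group or a control list no condition could be compared.

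The genes comprised 17 H2A, 16 H2B, 15 H3 and 16 H4 genes, 5 H3.3 genes, the linker histone gene his-24, and 2 short genes that RefSeq describes only as histone domain-containing (his-39 and his-73). Chromosome V held 27, chromosome IV 22, chromosome II 14, chromosome X 4, chromosome III 3 and chromosome I 2. Ensembl gives the 72 records only 50 different symbols. The names used here are the RefSeq symbols matched by WormBase ID, which differ from the Ensembl symbol for 22 genes.

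The values are the authors' signal value per entry of a peak list, used only to rank and describe entries within that list. The pooled list and both replicate lists hold 30000 entries each, so they include weak entries, and an absence means only that no entry reached the floor of the list (9.05 in the pooled list, 5.17 in replicate 1 and 5.33 in replicate 2). The authors' list of peaks that passed an irreproducible discovery rate (IDR) threshold holds 119 peaks, with signals from 35.04 upwards. Depth is unknown because the lists give no read counts. Peak positions are the summits, and distances are to the 5′ end of the gene record, also called its start here. Of the 72 records 69 have a length that is a multiple of 3. The 5′ ends were not compared with annotated start codons.

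The stem-loop of replication-dependent histone messages separated 62 of the histone genes from the other 10. It was searched by a letter pattern, with a loop of 4 bases between stem arms of 6 bases in which pyrimidines face purines, on the coding strand within 150 bp after a stop codon. Over all 19973 protein-coding genes it was found after 62, and all of these were histone genes. The 4 forms are shown here because they mark the gene class that most of the loci are made of, with the stem in capitals and the loop in lower case, and with the chromosome of 1 gene that has each form.
his-16 (chromosome II): GGCCCTctttAGGGCC
his-39 (chromosome V): GGCCCTctttAGAGCC
his-52, his-54, his-22 and his-20 (chromosome V): GGCCCTcttaAGGGCC
his-69 (chromosome III): GGCCCTctttAAGGCC
The forms as printed follow 53, 4, 4 and 1 genes in that order. The his-39 and his-69 forms, at 5 genes, make 5 base pairs and leave 1 C facing an A, while the other forms make 6. In all forms the match began 31 to 58 bp after the stop codon. The genes without a match were his-24, his-35, his-37, his-41, his-47, his-70, his-71, his-72, his-73 and his-74. They include 4 of the 5 H3.3 genes.

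Of the 72 histone genes, 62 lay in 31 head-to-head pairs, of which 16 joined H2A to H2B, 14 joined H3 to H4, and 1, his-67 with his-68, joined H4 to H2A. The interval between the 5′ ends of a pair was 227 to 368 bp long, with a median of 258 bp. The 31 intervals held only 21 different sequences, and 16 pairs had an interval identical to that of another pair. The interval between his-51 and his-52 occurred 4 times, also at his-54 and his-53, his-21 and his-22, and his-20 and his-19. It is shown, from ce11 on the forward strand, because it carries short words that also appear under the strongest histone peak. Capitals mark TATAAA and TGACA on either strand and the word GGGGACAC, which reads gtgtcccc here.
his-51/his-52 interval (chrV:8850172-8850463, forward strand): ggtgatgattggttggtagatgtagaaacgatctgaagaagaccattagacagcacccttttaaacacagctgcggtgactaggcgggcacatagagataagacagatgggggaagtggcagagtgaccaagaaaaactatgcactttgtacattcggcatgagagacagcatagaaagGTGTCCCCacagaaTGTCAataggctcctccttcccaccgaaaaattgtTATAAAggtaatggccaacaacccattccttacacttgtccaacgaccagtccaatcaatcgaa
The same capitals are used for the bases within 100 bp of the pooled summit at his-37, the only histone gene near an IDR peak, and for the interval between the H4 gene his-38 and the H3 gene his-40, whose words all occur once in the genome and which had no entry.
his-37 summit window (chrV:9546912-9547112, forward strand): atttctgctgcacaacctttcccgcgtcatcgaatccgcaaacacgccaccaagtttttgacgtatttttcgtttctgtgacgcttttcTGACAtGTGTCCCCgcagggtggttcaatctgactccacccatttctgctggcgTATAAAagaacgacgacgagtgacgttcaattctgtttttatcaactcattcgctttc
his-38/his-40 interval (chrX:7309876-7310109, forward strand): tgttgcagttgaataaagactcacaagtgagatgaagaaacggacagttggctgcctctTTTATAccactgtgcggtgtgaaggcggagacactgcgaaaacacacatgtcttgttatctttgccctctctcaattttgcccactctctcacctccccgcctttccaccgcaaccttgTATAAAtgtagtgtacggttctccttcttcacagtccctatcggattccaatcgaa

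In the pooled list, 18 of the 72 histone genes (exact 95% binomial interval of the share 15.5 to 36.6%) had a summit within 1 kb of the 5′ end, against 49.1% of all protein-coding genes. They belonged to 12 of the 19 loci and rested on 16 entries, since neighbouring genes share a summit. The highest signal per gene had a median of 12.8 over these 18 genes, from 9.35 to 67.97, and a median of 12.6 over all genes with an entry. The share was 26.4% in the replicate 1 list, against 49.0% of all genes, and 16.7% in the replicate 2 list, against 49.6%. Both replicate lists had an entry at 8 histone genes (11.1%), against 28.2% of all genes. These intervals treat genes as independent and cover counting error only, and paired or identical genes are not independent.

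The genes without an entry were mostly the repeated ones. As a measure of repetition, the share of 31-base words that occur once in the genome on either strand was counted within 1 kb of each 5′ end. Its median was 28.8% for histone genes and 99.9% for all protein-coding genes, and 37 histone genes had no unique word within 100 bp of the start. Of the 41 histone genes with under 50% unique words 2 had a pooled entry (4.88%, interval 0.596 to 16.5%), against 5.19% of the 539 genes of this kind in the genome. With 50 to 90% unique words it was 9 of 20 (45.0%, interval 23.1 to 68.5%), against 34.0% of 2604 genes. With at least 90% it was 7 of 11 (63.6%, interval 30.8 to 89.1%), against 52.8% of 16830 genes. In each of these ranges the histone interval contained the share of all genes, which includes the histone genes themselves. Because the intervals are wide and paired genes share entries, they cannot decide whether histone genes differ within a range. Whether the lower share of histone genes as a whole comes from their repeated sequence was not tested, and how the authors treated reads that match several places is not given in the sources used here. This division was chosen after the entries had been seen.

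**Figure D1:**
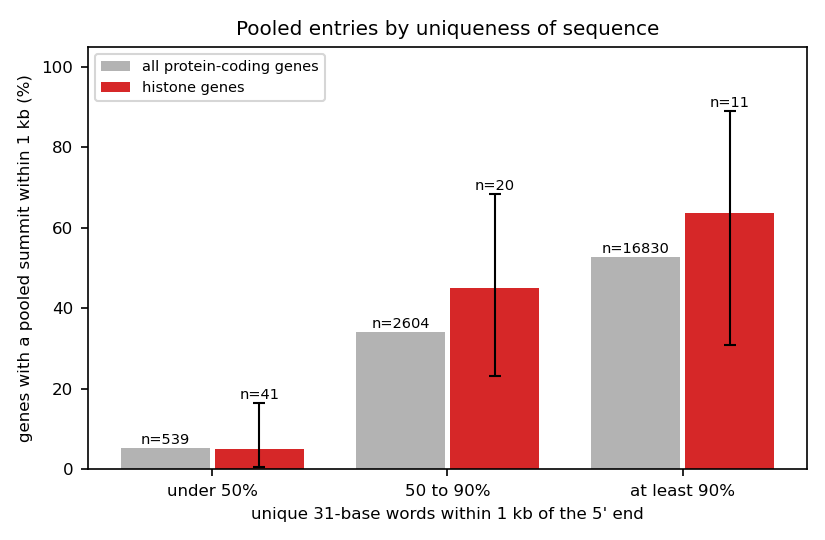
The bars give the share of genes (%) with a pooled summit within 1 kb of the 5′ end, for all protein-coding genes (grey) and histone genes (red), in 3 ranges of unique 31-base words within 1 kb; error bars are exact 95% binomial intervals of the histone shares. In both sets the share is lowest in the most repeated range, 4.88% of 41 histone genes and 5.19% of 539 genes.

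The stem-loop divided the genes in a like way. A pooled entry lay within 1 kb of 12 of the 62 genes with a stem-loop and of 6 of the 10 genes without one. The share over all protein-coding genes was 49.1%. Among the 3 lists together, 47 histone genes had no entry in any, and all 47 had the stem-loop, while each of the 10 genes without a stem-loop had an entry in at least 1 list. An entry in at least 1 list was found at 25 of the 72 histone genes, against 73.0% of all protein-coding genes and 77.3% of those with at least 90% unique words. The median share of unique words was 22.5% in the first group and 98.4% in the second, so gene class and repeated sequence cannot be told apart here. With at least 90% unique words, 2 of 3 genes with a stem-loop and 5 of 8 without had a pooled entry. The 2 were his-67 and his-68, which share the entry, while his-69 had no pooled entry. In this range all 3 with a stem-loop and all 8 without had an entry in at least 1 list. With 50 to 90% unique words, a pooled entry was found at 8 of 19 with a stem-loop and at the 1 without, his-73. The share of all genes in that range was 34.0%.

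**Figure D2:**
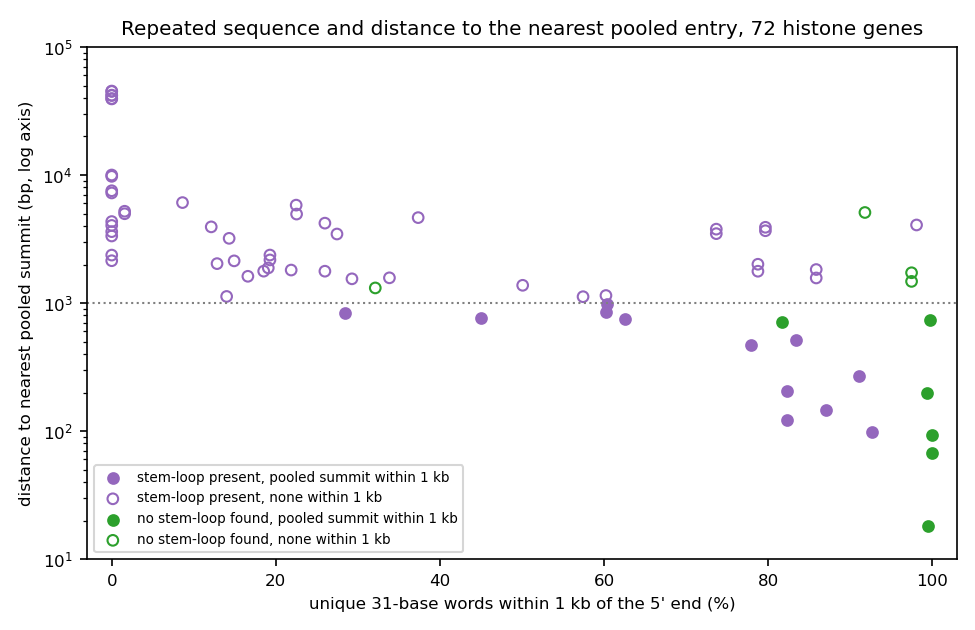
Each of the 72 points is 1 histone gene, placed by the share of unique 31-base words within 1 kb (%) and by the distance from its 5′ end to the nearest pooled summit (bp, log axis). Filled points have a summit within 1 kb (below the dotted line), and colour gives whether a stem-loop was found. The points at 0% unique words all lie above the line. Below it lie 6 of the 10 genes without a stem-loop and 12 of the 62 with one, against 49.1% of all protein-coding genes.

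The strongest entry at a histone gene lay just before his-37, an H4 gene that stands beside an H2A and H2B pair (his-35 and his-41) on chromosome V. The pooled entry (chromosome V, 9546844 to 9547179) had a signal of 67.97 and ranked 13 of 30000. Its summit was 93 bp upstream of the 5′ end, in intergenic sequence, and every 31-base word of its window was unique. This was the 1 IDR peak within 1 kb of a histone gene (1.39% of 72 genes, against 0.546% of all protein-coding genes). The entry meeting it had a signal of 52.4 and rank 9 in replicate 2, but 7.44 and rank 12857 in replicate 1, where the median of the list is 7.05. The same site thus stood near the top of 1 replicate list and near the middle of the other. Among the 119 strongest entries of replicate 2 alone his-37 was the 1 histone gene within 1 kb, and among those of replicate 1 alone it was his-72. The replicate summits lay 87 bp (replicate 1) and 75 bp (replicate 2) upstream of the 5′ end.

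In the his-37 sequence printed above, TGACA, the core of the Meis site, begins 11 bp before the pooled summit. The word GGGGACAC follows it after 1 base, on the reverse strand, and TATAAA begins 50 bp before the 5′ end. The full Meis hexamer TGACAG was not in the window. The word GGGGACAC was chosen after it had been seen in this window and in the his-51 and his-52 interval. It was present on either strand within 500 bp upstream of 44 histone genes (61.1%), against 0.681% of all protein-coding genes. The word lay upstream of 9 of the 18 histone genes with a pooled entry (50%) and of 35 of the 54 without one (64.8%). It was in 21 of the 31 pair intervals. Since the word was picked from histone sequence and paired genes share an interval, these counts are a description. Of the 30000 pooled summit windows of 100 bp to each side, 61 held the word (0.203%), and 3 of these were windows near histone genes (his-37, his-68 and his-24). His-37 was the only one of these 3 in the IDR list, in which 1 of 119 windows held the word.

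His-35 and his-41 had no pooled summit within 1 kb, although every word within 100 bp of both starts was unique. A replicate 1 entry of 8.18 (rank 9384) lay in an intron of his-41, 256 bp after its 5′ end, and was stronger than the 7.44 at his-37 in that list, with no replicate 2 counterpart within 1 kb of either gene. A second pooled entry of 11.2 lay 569 bp after the 5′ end of his-37, in the annotated 3′ UTR of nstp-10.

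**Figure D3:**
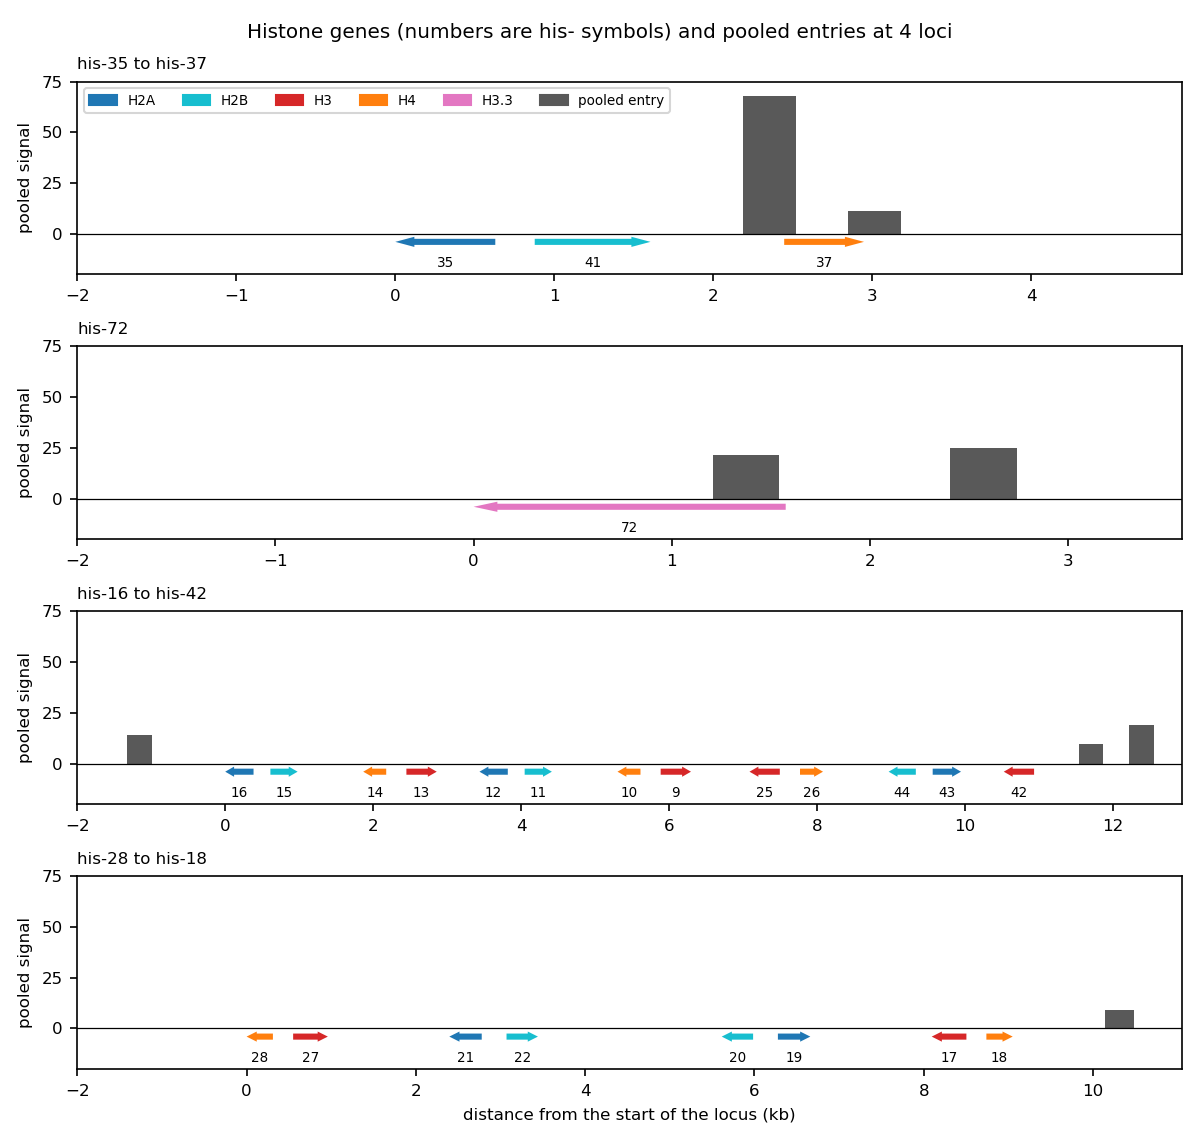
Gene arrows (coloured by histone class, labelled with the number of the his- symbol) and pooled entries (grey bars, height is the signal) are drawn at 4 loci against distance from the start of the locus (kb). The his-37 entry reaches 67.97 and the his-72 entries 25.1 and 21.6, while no bar lies between the first and last gene of the 13-gene locus or of the 8-gene locus.

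The H3.3 genes encode the replacement form of H3 and all had at least 91.8% unique words. The highest level among them was at his-72 on chromosome III, with 2 pooled entries. The stronger (12369881 to 12370216) had a signal of 25.1 and rank 416, and its summit lay 999 bp upstream of his-72 and nearer to rpt-6, a proteasome subunit gene, at 407 bp. It was strong in replicate 1 (22.5, rank 20) and weak in replicate 2 (7.90, rank 11361). The second (12368683 to 12369018) had a signal of 21.6 and rank 899 and lay in an intron, 199 bp after the 5′ end. Its order was the reverse, 5.47 with rank 27152 in replicate 1 and 12.3 with rank 1788 in replicate 2. Neither was an IDR peak, and each was high in only 1 of the replicates. The intron window held the Meis hexamer, shown with 10 bases on each side and the hexamer in capitals.
his-72 intron site (chrIII:12368910-12368935, reverse strand): actctcgagtTGACAGcctttttcgg

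At his-74 on chromosome V the pooled signal was 15.9 (12659427 to 12659762, rank 4628), with 6.08 in replicate 1 and 12.6 in replicate 2 as the strongest entries that overlapped it. The replicate 1 summit of 6.08 lay in a coding exon of ccch-3, and a second replicate 1 entry, with its summit nearest to the pooled one, had 5.46 (rank 27186). The pooled summit lay 735 bp after the 5′ end of his-74, in the 5′ UTR of ccch-3, whose 5′ end was nearer at 92 bp. At his-71 on the X chromosome it was 13.7 (7981970 to 7982305, rank 9031), with 7.39 in replicate 1 and 5.97 in replicate 2, and the summit lay 68 bp upstream. The replicate 1 value was just above the median of its list (7.05), and the replicate 2 value was below the median of its own (7.22). At his-69 and his-70, a neighbouring pair of H3.3 genes on chromosome III, the pooled list had no summit within 4072 bp. Only replicate 1 had entries there, of 9.72 at his-69 and 8.06 at his-70. The his-70 entry was also within 1 kb of his-69. All 5 H3.3 genes thus had a replicate 1 entry within 1 kb, where 49.0% of all genes had one. A replicate 2 entry was found at 3 of them, against 49.6% of all genes. Among all 11 histone genes with at least 90% unique words, 10 had a replicate 1 entry and 6 had a replicate 2 entry. Shares of all genes in this range are not given for the single replicate lists, so these counts are a description. These 11 include the 5 H3.3 genes.

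The linker histone gene his-24 on the X chromosome had the weakest pooled entry among the histone genes. Its signal was 9.35 (14489908 to 14490243, rank 28003), near the floor of the pooled list, with a summit 18 bp upstream. Replicate 1 had an entry of 8.28 (rank 8983) there, above the median of its list, and replicate 2 had none. The surroundings of his-24 were 99.5% unique.

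Among the genes with a stem-loop, the strongest entry lay between his-67 and his-68 on chromosome I, an H4 gene and an H2A gene. It had a signal of 16.8 (9988865 to 9989200, rank 3523), with its summit 99 bp upstream of his-68 and 270 bp upstream of his-67, and a fully unique window. Replicate 2 had an entry of 13.2 (rank 1272) there, and replicate 1 had none that met it. At the locus of his-8, his-7, his-6, his-5 and his-39 on chromosome V an intergenic entry of 12.8 lay 746 bp after the 5′ end of his-6 and also within 1 kb of his-7 and his-5. The replicate values there were 5.36 and 6.39, so it was weak in both lists. At the same locus an entry of 15.3 near his-39 lay 306 bp upstream of otpl-4, and at the short gene his-73 an entry of 16.7 lay nearer to W09H1.4 (540 bp). Neither had a replicate 2 entry that met it.

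The remaining pooled entries at genes with a stem-loop were near the floor of that list. They were 10.5 in an intron of his-57, 10.5 between his-61 and his-62, 10.4 in the coding exon of his-31, 9.82 upstream of his-42 and 9.79 beyond his-67. Replicate 2 entries of 9.19 (rank 6607) and 8.97 (rank 7327), above the median of their list, met those at his-57 and his-42. The entry between his-61 and his-62 met no entry in either replicate list, and at the same locus replicate 1 had an entry of 8.94 (rank 6680) 763 bp after the 5′ end of his-59. At his-31 only 57.9% of the words in the window were unique, and at his-42 21.6%. The his-31 window held the other Meis hexamer found among the 16 histone windows, where 2 of 16 held TGACAG, against 6.40% of all 30000 pooled windows and 12.6% of the 119 IDR windows. The core TGACA was in 7 of 16 against 32.4% of pooled windows, TATAAA in 4 against 24.2%, GAGAGA in 2 against 10.8% and GATAA in 13 against 39.0%, each on either strand. TGACA is part of TGACAG, so those counts overlap.

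Across the 16 pooled entries, 7 summits lay within 200 bp of a histone 5′ end, at his-37, his-72, his-68, his-71, his-62, his-31 and his-24. For 12 of the 16 the nearest protein-coding 5′ end was that of a histone gene, and for the other 4 it was that of rpt-6, W09H1.4, ccch-3 or otpl-4. By position 11 were intergenic. A replicate 1 entry met 11 of the 16, a replicate 2 entry met 10, and both met 6. By locus, 6 of the 19 had an entry in both replicate lists, those of his-37, his-72, his-67, his-8, his-74 and his-71. At the his-67 locus these were separate sites, with summits at 9988001 in replicate 1 and 9989037 in replicate 2. Entries of both replicates overlapped the strongest pooled entry at 4 loci. The matching shares over all pooled entries, or over other groups of genes, are not given. The counts by position, nearest gene, replicate and locus therefore describe the histone entries only. They cannot show whether these entries differ from other pooled entries.

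**Figure D4:**
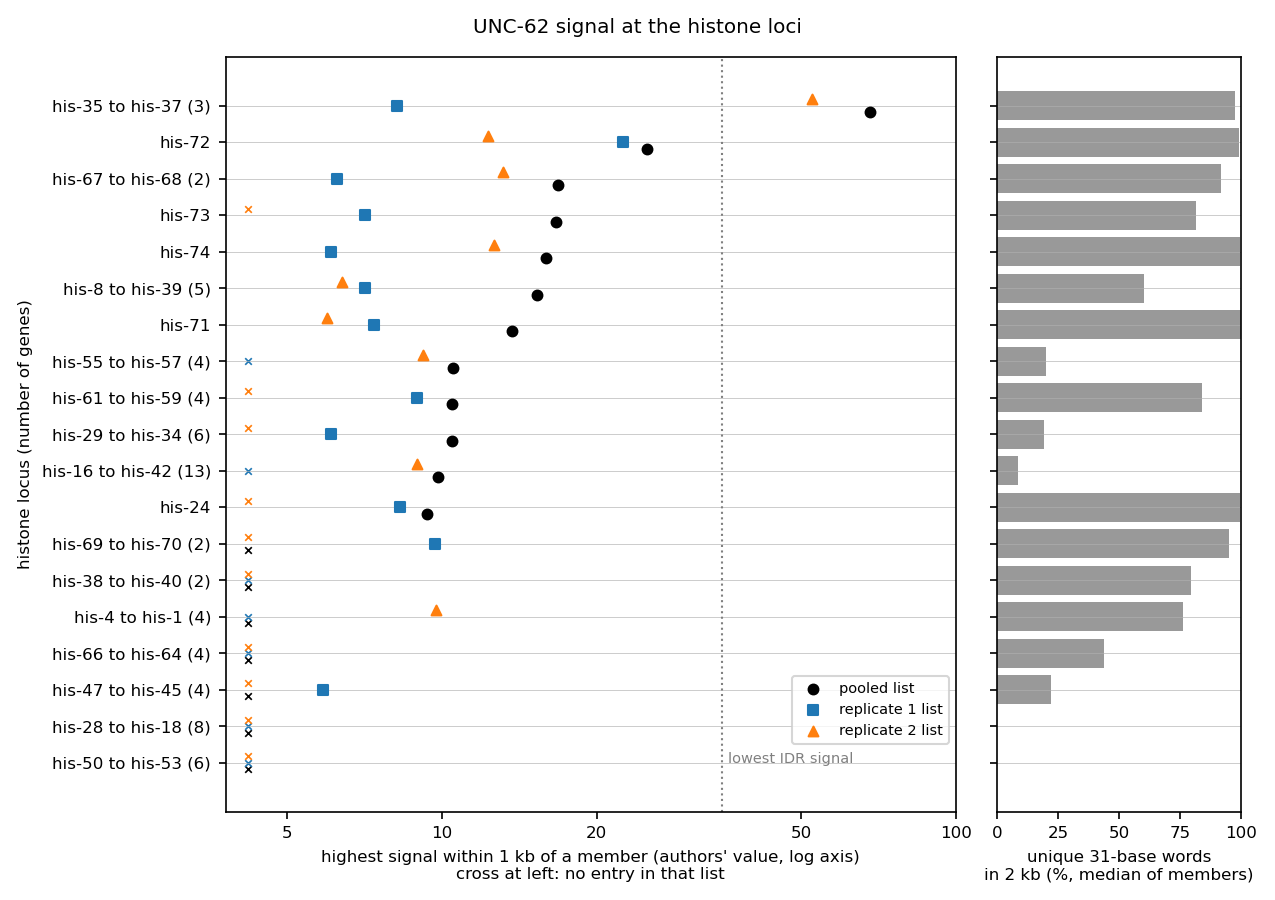
For each of the 19 histone loci, the left panel gives the highest signal within 1 kb of a member (log axis) in the pooled list, replicate 1 and replicate 2, with a cross where a list had no entry, and the right panel the median share of unique words (%). In the pooled list the his-35 to his-37 locus alone passes 35.04, the lowest IDR signal, and 7 loci have no pooled entry.

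There were 7 loci with no pooled entry within 1 kb of any member. The 2 with the most genes lay on chromosome V. The 6 genes his-50, his-49, his-51, his-52, his-54 and his-53 span 6661 bp that recur without a single mismatch 42095 bp away as his-28, his-27, his-21, his-22, his-20 and his-19, within an identical run of 15287 bp. None of the 31-base words around these 12 starts was unique. The nearest pooled summit was 39309 to 45275 bp from the genes of the first copy. In the second copy, which continues with his-17 and his-18, it was 1574 to 10003 bp away. At the 13-gene locus of chromosome II, from his-16 to his-42, only his-42 at its edge had an entry. The other 12 starts had 0% unique words within 100 bp. On chromosome IV the loci of his-47, his-48, his-46 and his-45 and of his-66, his-65, his-63 and his-64 had no pooled entry, and replicate 1 had 1 entry of 5.87 near his-47.

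Entries were also missing at some pairs whose interval was made of unique words. The interval of 8 pairs consisted of at least 90% unique words, and 3 of these had a pooled summit within 500 bp of their midpoint (his-67 with his-68, his-61 with his-62, and his-31 with his-32). The other 5 were his-60 with his-59, his-35 with his-41, his-4 with his-3, his-2 with his-1, and his-38 with his-40, printed above. Within 1 kb of the starts, unique words made up 97.5% at his-35 and his-41 and 85.8% at his-60 and his-59. They made up 79.7% at his-38 and his-40, 78.7% at his-2 and his-1, and 73.7% at his-4 and his-3. Of the 17 pairs with no unique word in the interval, none had such a summit. By the same measure, 40.9% of the 1681 head-to-head pairs of neighbouring protein-coding genes under 1 kb apart had a summit, 44.1% of the 1504 with at least 90% unique words in the interval and 0.00% of the 32 with none, 17 of which are the histone pairs. At his-38 and his-40 no list had an entry within 1 kb, and the nearest pooled summit was 3671 bp away. At the locus of his-1 to his-4 the 1 entry was in replicate 2 (9.73, 944 bp after the 5′ end of his-1).

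Genes for histones without a his- symbol and for histone supply were set beside these, from a list of 26 that included the linker histone genes hil-1 to hil-8, the H2A.Z gene htz-1, the centromeric H3 genes hcp-3 and cpar-1, and chaperone genes. All had at least 77.4% unique words. A pooled entry lay within 1 kb of 14 of the 26 (53.8%, against 49.1% of all genes), and their median signal was 13.7. The highest were lin-53, which encodes a histone-binding WD-repeat protein (36.7, rank 96, 243 bp upstream and nearer to nra-2), the ATRX gene xnp-1 (32.9, rank 149) and htz-1 (31.4, rank 172, nearer to wapl-1). Only lin-53 of the 26 had an IDR peak, against 0.546% of all protein-coding genes. In replicates 1 and 2 the signal was 7.54 and 27.2 at lin-53, 11.1 and 17.7 at xnp-1, and 15.8 and 11.5 at htz-1. Of the 8 hil genes only hil-2 had a pooled entry (14.9), where 49.1% of all genes had one. So small a group allows a description only. The gene cdl-1, which encodes the stem-loop binding protein, had no pooled entry. In the replicate lists hil-5 had entries of 6.38 and 8.24, hil-3 had 8.71 in replicate 1 and cdl-1 had 5.64 in replicate 1.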

How the data were processed

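The authors deposited peak lists in builds ce11 and ce10, per the file names and labels, and only those of ce11 were used, whose coordinates match WBcel235. Each entry has the authors' signal value and a deposited −log10 q-value, which was not used for ranking. The deposited file descriptions trace the lists back to alignment files. The aligner, the peak caller, the IDR cutoff and the use of reads with several matches are not given in the sources used here. Read counts were not analysed here, so depth is unknown. The labels give library sizes of 150 to 350 bp.

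Genes came from Ensembl release 115, and names, products and sequence from RefSeq WBcel235. Coordinates are 1-based. A word counted as unique when it occurred once in the 6 nuclear chromosomes on either strand. No test was made, since there is 1 group and genes are not replicates. The genes named were those of every locus, in detail for the 8 loci with the highest pooled signal, the 3 with the lowest, the H3.3 genes, his-24, his-35 and his-68, and the 3 strongest related genes. Members, lists and alternatives were chosen with earlier results of these data known, and the stem-loop, the word GGGGACAC, the ranges of unique sequence and the counts over all head-to-head pairs were added after the entries were seen. The functions were tested on simulated data. The software was pandas 2.3.3 and numpy 2.4.6 for the tables, scipy 1.17.1 for the intervals and matplotlib 3.10.9 for the plots, under Python 3.11.15.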

Additional observations from a re-analysis of the deposited data

How the results depend on the processing

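Of 68 alternatives, 51 left a value within 1.5 times the reported count or within its spread, and 17 moved it; 12 were chosen after seeing the data. Genes with a pooled entry numbered 10 within 500 bp, 35 within 2 kb and 8 among the 10000 strongest entries. They numbered 7 among genes with at least 90% unique words. The loci with a pooled entry numbered 7, 16, 7 and 6 in that order. Shares over all protein-coding genes are not given for these 2 distances or for the 10000 strongest entries. Those counts therefore cannot be set against the 49.1% of all genes within 1 kb. Genes with an IDR peak numbered 3 within 2 kb (his-35, his-41 and his-37, from 1 summit) and 2 among the strongest pooled entries when 5 times as many were taken as the IDR list holds (his-37 and his-72, 2 loci). With 1 replicate left out, taking the strongest entries of the other list up to the length of the IDR list, the number was 1, which was his-37 without replicate 1 and his-72 without replicate 2. Loci with entries in both replicate lists numbered 3 within 500 bp, 10 within 2 kb and 2 among the 10000 strongest entries. The median of the highest signal over loci, 14.5, became 16.7 among the 10000 strongest entries and 16.4 among genes with at least 90% unique words, and ranged from 7.25 to 9.73 with 1 replicate left out, on the scale of a single list. The cause was not tested. No paired analysis was possible because there is 1 group. Unknown depth limits any statement on weak or absent entries.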
